A study of Mus musculus with 38 samples.

Results

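RNA of mouse two-cell embryos held in M-phase of the second embryonic mitosis was sequenced from 2 parts of the same sucrose gradients, the heavy part that holds polysomes and the light part that does not. These libraries are called two-cell M polysome and two-cell M non-polysome here. They were chosen by stage, fraction and replicate letter, and they are 6 of the 38 samples of the series, with gradients A, B and C each giving 1 library of each fraction. Of the 10 fractions of a gradient, the 5 lighter ones had been pooled as non-polysome and the 5 heavier ones as polysome. The embryos came from ICR females (no genetic change is named) that had been stimulated with gonadotropins and mated, were cultured to the two-cell stage, and were arrested with nocodazole, which blocks the growth of microtubules, so both fractions carry that treatment. For the gradients, the methods of the study also name cycloheximide treatment before lysis, worded for oocytes. The treatment entry in the labels calls these embryos M-phase of meiosis, while their titles and the methods of the study place them in mitosis. No M-phase embryos without nocodazole were analysed here, so the arrest and nocodazole cannot be told apart. The series also holds the GV and MII oocyte, the zygote, the M-phase zygote (zygote M) and the interphase two-cell embryo (two-cell), and the last pair served for comparison.

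A polysome is an mRNA with several ribosomes on it, and its weight carries it far down a gradient, while free mRNA, mRNA bound to repressor proteins and mRNA with a single ribosome stay near the top. The share of an mRNA in the heavy fractions is therefore a common reading of how actively it is translated. In M-phase, protein synthesis as a whole is known to fall in many cells. At the two-cell stage of the mouse the embryo has begun strong transcription of its own genome while mRNAs stored by the oocyte are being degraded, so the RNA is a mixture of new and inherited transcripts.

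Levels are given as the deposited FPKM (fragments per kilobase of gene, scaled to the size of the library), in a table of 23125 genes. Each library is scaled to its own total of fragments, so a higher value in one fraction does not mean more molecules. The FPKM summed over all genes was 207391 to 247361 outside polysomes and 122504 to 152254 in them. A higher FPKM in one fraction is therefore not always a larger share of that sum. In such pooled RNA, fewer embryos and less RNA per embryo cannot be told apart. The depth read from the steps between low values was about 11100000 to 19400000 fragments in the polysome libraries and 8500000 to 17100000 in the non-polysome libraries, against 13200000 to 26700000 in the other stages. On a gene of 1 kb, 3 fragments correspond to 0.154 to 0.353 FPKM in these 6 libraries. Between 6261 and 7550 genes reached 0.1 FPKM in a polysome library and between 5140 and 5889 in a non-polysome library. The means of 7046 ± 689 and 5512 ± 375 (SD, n = 3) differed by 1534 genes. The exact two-sided permutation p was 0.1, the smallest that 3 libraries against 3 can give, without pairing by gradient. The order depended on the cutoff, and 0.1 FPKM is below the level of 3 fragments on 1 kb. At 1 FPKM the means differed by 317 genes, with an exact two-sided permutation p = 0.2. At 10 FPKM the order was reversed, with means of 1064 genes in polysomes and 1418 outside. The median SD of the paired log2 difference over genes was 2.40, the highest of the 6 stages, where the others lay between 0.49 and 2.15. Correlations between these libraries across the tested genes, which are not independent of each other, were 0.62 to 0.71 within a fraction and 0.59 to 0.71 between fractions, so the fractions did not separate by overall correlation.

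Markers of the labelled cells were present. The 20 preimplantation embryo genes in the table summed to 900 to 1411 FPKM in the polysome libraries and to 4047 to 9882 FPKM in the non-polysome libraries, with most of it from Dppa5a. Of 14 cumulus and granulosa genes, none passed the minimum for testing, their sum was 4.50 to 16.0 FPKM in polysomes and 6.44 to 19.2 in the non-polysome fraction, mostly from Amhr2, and Foxl2, Fshr, Inha, Lhcgr and Star were at the lowest value of the table, 0.01, in all 6 libraries. The 9 sperm genes summed to 0.261 to 13.4 FPKM in polysomes and 0.0928 to 0.644 in the non-polysome fraction, with Prm2 and Tnp2 at 0.01 throughout, and 1 of the 2 tested was called higher in polysomes. The 16 oviduct genes summed to 0.843 to 1.87 and 2.74 to 9.69 FPKM, and Foxj1 was at 0.01 throughout. The 7 blood genes summed to 24.4 to 42.5 FPKM in polysomes and 0.07 to 52.6 in the non-polysome fraction, almost all of it Hba-a1, while Hbb-bs and Hbb-bt were at 0.01 in all 6. Their part in the differences between fractions was not tested.

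Which mRNAs were enriched in the polysomes of embryos in the second mitosis was asked by comparing both fractions of each gradient. Among 7967 tested genes, 747 (9.38%) were called higher in polysomes and 418 (5.25%) higher in the non-polysome fraction. A call needed a Benjamini-Hochberg adjusted p under 0.05 in limma and a log2 difference beyond 1, and the gradient was a block in the fit. The median log2 difference over all tested genes was 0.37, and 4588 genes had a positive one. The 2 sets of calls lay at different levels. Of the 747 polysome calls, 341 had a mean under 1 FPKM over the 6 libraries and 74 a mean of at least 10 FPKM, and of the 418 non-polysome calls 54 were under 1 FPKM and 223 reached 10 FPKM. Within the 790 protein-coding genes whose mean over the 6 libraries was 10 FPKM or more, called abundant here, 51 (6.46%) were called higher in polysomes and 132 (16.7%) higher in the non-polysome fraction, and the median log2 difference was -0.88. All polysome libraries were on top for 41 (5.19%) of the 790 and all non-polysome libraries for 255 (32.3%). The FPKM summed over all genes was also higher outside polysomes, at 207391 to 247361 against 122504 to 152254. The main fit did not scale differences to that sum, here or in the sections below, so they are not differences in share.

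These counts rest on a spread shared by all stages. With the 6 two-cell M libraries alone and the gradient as a block, limma called 0 genes in either direction, with 913 genes at an unadjusted p under 0.05, and without the block it called 5 higher in polysomes and 14 higher in the non-polysome fraction. With a spread estimated for each group, 164 (2.06%) and 21 (0.264%) genes were called. The share of calls that were higher in polysomes was 64.1%, and it was 53.3% with 0.1 FPKM added to each value, 38.5% with 1 FPKM added, 88.6% with the spread per group and 7.42% when the medians of all libraries were set equal, which moved the median log2 difference over all genes to -2.14. Of the calls, 308 of 747 and 142 of 418 were made in all 3 fits that left out 1 gradient. By position alone, 818 genes (10.3%) had all 3 polysome libraries above all 3 non-polysome libraries, and 762 (9.56%) the reverse.

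**Figure D1:**
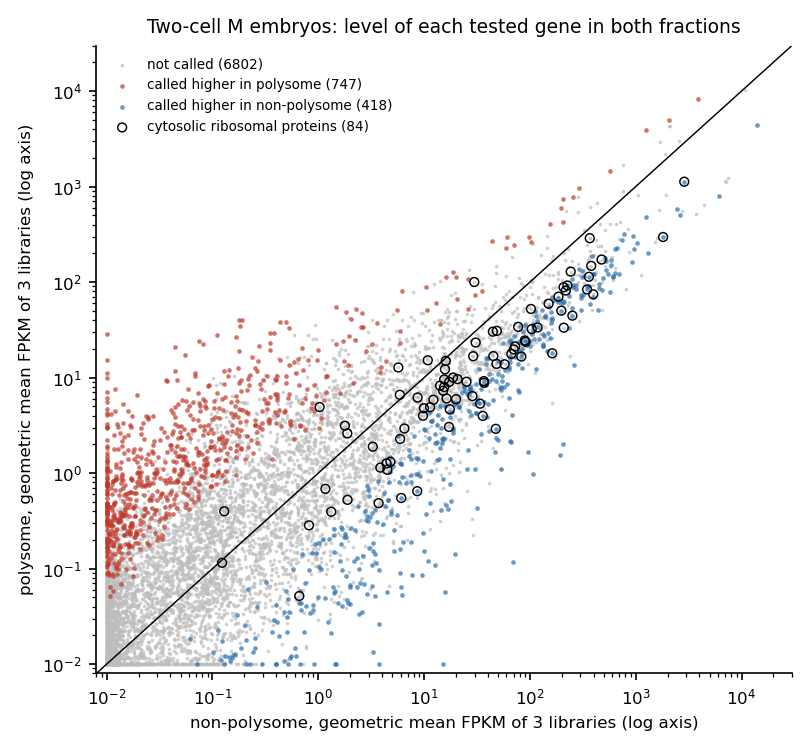
Geometric mean FPKM of 3 polysome libraries (vertical, log axis) against that of 3 non-polysome libraries (horizontal, log axis) for the 7967 tested genes of two-cell M embryos, with called genes coloured, cytosolic ribosomal protein genes ringed and the line of equal levels drawn. The 747 polysome calls lie mostly at low levels, the 418 non-polysome calls reach the high levels, and 76 of the 84 ribosomal protein genes have a negative fitted difference.

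Among abundant protein-coding genes, 24 were called higher in polysomes, lay above the lowest value in all 6 libraries and had no overlap between fractions, and 11 of the 12 with the largest difference are described here. The largest belonged to Arf5 (chr6:28423560-28426602), a small GTPase of vesicle traffic at the Golgi. Arf5 was at 20.9, 10.98 and 49.1 FPKM in polysome libraries A, B and C and at 0.0907, 0.126 and 0.0484 FPKM in the non-polysome libraries. The log2 difference was 8.09 ± 0.50 (SE, limma adjusted p = 7.01e-08), and since each non-polysome value amounts to about 1 fragment, its size is loosely fixed. Sebox, a homeobox gene of oocytes and early embryos, had 36.0, 11.1 and 46.9 FPKM in polysomes and 0.461, 0.226 and 0.0457 FPKM outside them, a log2 difference of 7.30 ± 0.59 (SE, adjusted p = 1.16e-06). Zp1, a glycoprotein of the zona pellucida, had 17.2, 14.0 and 49.5 FPKM against 0.165, 0.233 and 1.09 FPKM, a log2 difference of 6.04 ± 0.76 (adjusted p = 8.22e-05). In all of these the fractions were far apart in every gradient.

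Cytoskeletal genes were among them. Tubb2a, a beta-tubulin, had 24.5, 22.9 and 74.0 FPKM in polysomes and 0.0319, 1.42 and 0.135 FPKM in the non-polysome libraries, with a log2 difference of 7.57 ± 0.78 (limma adjusted p = 1.33e-05). For Tubg2, a gamma-tubulin of microtubule-organising centres, the values were 29.9, 26.5 and 162 FPKM against 3.62, 5.75 and 8.13 FPKM, a difference of 3.19 ± 0.42 (adjusted p = 0.000136). Actb, cytoplasmic beta-actin, was even across the polysome libraries at 35.6, 34.8 and 41.0 FPKM and lower outside them at 3.54, 12.4 and 1.08 FPKM, a difference of 3.35 ± 0.50 (adjusted p = 0.000353).

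Genes of the ubiquitin system were also there. Cdc34, a ubiquitin-conjugating enzyme that works with SCF ligases, had 29.3, 25.5 and 49.6 FPKM in polysomes, and its non-polysome libraries split into 0.102 and 0.105 FPKM in A and B and 14.2 in C (log2 difference 5.96 ± 0.84, limma adjusted p = 0.000237). Dda1, a subunit of DDB1-containing ligases, showed the same split, at 0.0812, 0.0441 and 11.9 FPKM against 16.5, 18.97 and 24.2 FPKM in polysomes (5.81 ± 0.97, adjusted p = 0.000928). Ubb, a polyubiquitin gene and one of the 10 most abundant protein-coding transcripts, had 965, 1079 and 2919 FPKM against 459, 630 and 647 FPKM, a log2 difference of 1.34 ± 0.21 (adjusted p = 0.000455) that turned to -1.16 when library medians were set equal.

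The remaining members were Prelid1, a lipid transfer protein of mitochondria, Ldhb, a lactate dehydrogenase subunit, and Eef2, the elongation factor that moves the ribosome along the mRNA. Prelid1 had 32.3, 26.8 and 44.4 FPKM in polysomes and 15.5, 16.6 and 0.0706 FPKM outside (log2 difference 3.68 ± 1.15, limma adjusted p = 0.0424), so its size rests largely on gradient C. Ldhb had 46.2, 41.6 and 113 FPKM against 9.54, 11.1 and 20.3 FPKM (2.22 ± 0.28, adjusted p = 9.49e-05). Eef2 had 114, 87.6 and 122 FPKM against 27.7, 16.8 and 39.1 FPKM (2.02 ± 0.60, adjusted p = 0.0331), about the same step in each gradient. With library medians set equal the sign turned for Ldhb, to -0.28, and for Eef2, to -0.48. With the spread estimated per group, 8 of the 11 described remained called, all but Prelid1, Ldhb and Eef2. In the fits that left out 1 gradient, 9 were called each time, while Prelid1 was called in 2 of 3 and Eef2 in 0.

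Another 67 called protein-coding genes were at the lowest value in all 3 non-polysome libraries. The most abundant were Klhl21, an adaptor of CUL3 ubiquitin ligases that acts in mitosis, with 10.8, 15.4 and 21.8 FPKM in the polysome libraries, the membrane protein gene Tmem185b with 0.429, 11.1 and 35.5 FPKM, and Pidd1, a scaffold for caspase-2 activation, with 7.14, 1.95 and 24.7 FPKM. No fold is given for these, since one side had no fragments. The reverse pattern was rarer, with 6 called genes at the lowest value in all 3 polysome libraries. Of these, Chac1, a glutathione-degrading enzyme induced in the stress response, had 33.9, 0.981 and 1.62 FPKM outside polysomes. Zdhhc24 had 0.0465, 20.5 and 0.0273 FPKM and Comtd1 0.0624, 0.01 and 18.7 FPKM, so each was well detected in 1 library only.

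In the other direction, 104 abundant protein-coding genes met the same conditions. Dppa5a (chr9:78367052-78368177), an RNA-binding protein gene of pluripotent cells, was the most abundant of the protein-coding genes. It had 8876, 8156 and 3206 FPKM in the non-polysome libraries and 1179, 874 and 481 FPKM in the polysome libraries, a log2 difference of -2.96 ± 0.37 (limma adjusted p = 8.41e-05). Rce1, a protease that trims the tail of Ras-like proteins, had 52.9, 81.6 and 29.7 FPKM outside polysomes and 2.99, 0.601 and 6.21 FPKM in them (-4.50 ± 0.70, adjusted p = 0.000513). A430005L14Rik, a gene without an assigned function here, had 34.7, 20.3 and 59.5 FPKM against 5.51, 6.66 and 0.471 FPKM (-3.75 ± 0.69, adjusted p = 0.00188). These differences held in all 3 fits that left out a gradient, and Rce1 and A430005L14Rik were the 2 of the 12 that were also called with the spread per group.

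Regulators of transcription and RNA followed. Taf7, a subunit of the general transcription factor TFIID, had 15.1, 22.5 and 16.3 FPKM outside polysomes and 0.0239, 4.98 and 3.74 FPKM in them (-4.54 ± 0.96, limma adjusted p = 0.00512). Sox15, a transcription factor of the SOX family, had 420, 346.2 and 122 FPKM against 14.6, 10.3 and 16.6 FPKM (-4.26 ± 1.20, adjusted p = 0.0265). Cnbp, a zinc-finger protein that binds nucleic acids, had 53.5, 47.1 and 28.0 FPKM against 6.08, 25.7 and 0.137 FPKM (-3.90 ± 0.95, adjusted p = 0.0119). Ebna1bp2, a nucleolar protein of ribosome assembly, had 48.9, 40.5 and 55.4 FPKM against 3.69, 0.746 and 4.51 FPKM (-4.37 ± 1.03, adjusted p = 0.0101). All 4 were higher outside polysomes in every gradient, and only Taf7 was called in all 3 fits that left out a gradient.

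The last 5 were Rhno1, which acts in the DNA replication checkpoint, Gm5662 of the two-cell burst list, Trim61, Mrpl20 of the mitochondrial ribosome and Rps3a1 of the cytosolic ribosome. Their log2 differences lay between -3.89 for Rhno1 and -2.91 for Mrpl20, with adjusted p between 0.00598 (Trim61) and 0.0389 (Mrpl20). Rps3a1 was called in all 3 fits that left out a gradient and the other 4 in 1 or 2.

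**Figure D2:**
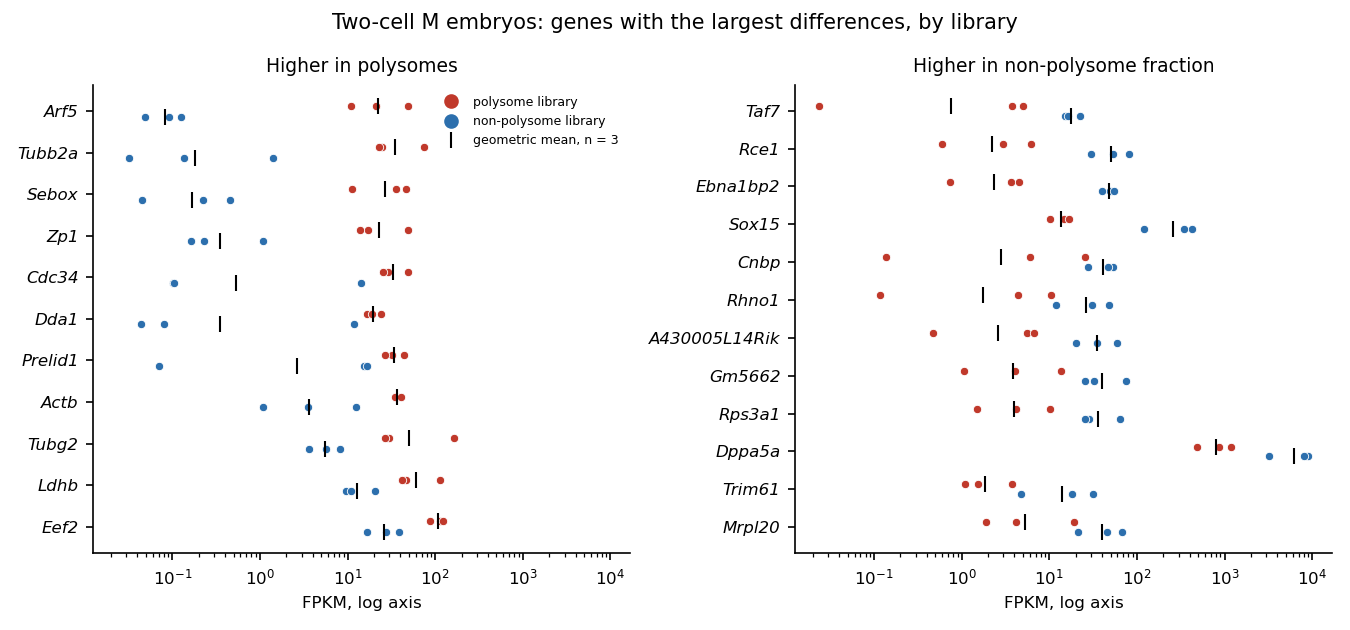
FPKM (log axis) of the genes with the largest differences in two-cell M embryos, 11 higher in polysomes and 12 higher outside, with red points for the 3 polysome libraries, blue points for the 3 non-polysome libraries and a bar at the geometric mean of each fraction. The fractions do not overlap for any gene shown, which the choice of genes required, and single libraries stand off for Cdc34, Dda1 and Prelid1 (non-polysome) and for Taf7, Cnbp and Rhno1 (polysome).

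Genes of the cytosolic ribosome made up a larger share of the non-polysome fraction than of polysomes. The table lists 89 such genes, of which 84 were tested, and 16 were called higher in the non-polysome fraction and 0 in polysomes, where limma gave 1 gene at an unadjusted p under 0.05. Of the 84, 76 had a negative difference, and 50 had all 3 non-polysome libraries above all 3 polysome libraries, against 1 the other way. Their median log2 difference was -1.42 beside 0.37 over all tested genes, and within gradients A, B and C it was -1.78, -1.54 and -1.12. All tested genes gave 5.25% calls outside polysomes and 9.56% with all non-polysome libraries on top. The 790 abundant protein-coding genes, of 10 FPKM or more, had a median of -0.88, with 16.7% called outside and 32.3% without overlap in that direction, and those with short coding sequences had medians down to -1.22. Only 1 of the 16 was also called with the spread per group. Many ribosomal protein genes have pseudogenes of nearly the same sequence, and reads may be shared between them in this table.

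Rplp0, a protein of the ribosomal stalk, showed it most firmly. It had 2044, 1504 and 1942 FPKM in the non-polysome libraries and 223, 225 and 518 FPKM in the polysome libraries, a log2 difference of -2.61 ± 0.33 (limma adjusted p = 8.37e-05), and it is the gene that was called in both fits. Rpl41, the smallest protein of the ribosome, had 3019, 3238 and 2433 FPKM against 1694, 1152 and 729 FPKM (-1.36 ± 0.42, adjusted p = 0.0404). The Rpl41 call was made in 1 of the 3 fits that left out a gradient and was lost without the block (limma adjusted p = 0.0739). That call is on FPKM and not on a share of the sum over all genes, which was also higher outside polysomes. Rps9 had 231, 246 and 282 FPKM against 49.6, 32.4 and 55.1 FPKM, and Rps3a1 28.4, 25.3 and 64.2 FPKM against 4.14, 1.5 and 10.1 FPKM. Rps29 had no overlap, with 416, 660 and 391.8 FPKM against 255, 202 and 99.3 FPKM, but was not called (adjusted p = 0.0916). Rplp1 was close to even, at 365, 404 and 339 FPKM outside and 285, 355 and 236 FPKM in polysomes (adjusted p = 0.694).

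Added over the 89 genes, the level was 11890, 11920 and 10010 FPKM in the non-polysome libraries and 4285, 3963 and 3615 FPKM in the polysome libraries. The sum over all genes also differed, at 207391 to 247361 FPKM against 122504 to 152254 FPKM. As a share of it, ribosomal protein genes made up 5.04%, 4.82% and 4.83% outside polysomes and 3.34%, 3.23% and 2.37% in them. The non-polysome sum was 2.77 to 3.01 times the polysome sum in the 3 gradients. In two-cell embryos in interphase that ratio was 2.23 to 3.55, with far lower levels (2142 ± 43.8 and 745 ± 185 FPKM, SD, n = 3). In zygote M it was 0.957 to 1.44 (314 ± 138 and 272 ± 54.5 FPKM). Compared with zygote M, the fraction difference was lower in two-cell M for 10 of the 84 ribosomal protein genes (11.9%) and higher for 0 by the interaction test in limma (31 lower and 0 higher at an unadjusted p under 0.05), with a median interaction of -1.74. Over all tested genes 1.76% were lower and 2.64% higher, and with only these 2 stages and the gradient as a block limma called 0 genes (891 at an unadjusted p under 0.05). In turn, compared with interphase two-cell embryos, limma passed 0 genes in either direction, with 6 higher and 4 lower at an unadjusted p under 0.05, and the median was 0.16.

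**Figure D3:**
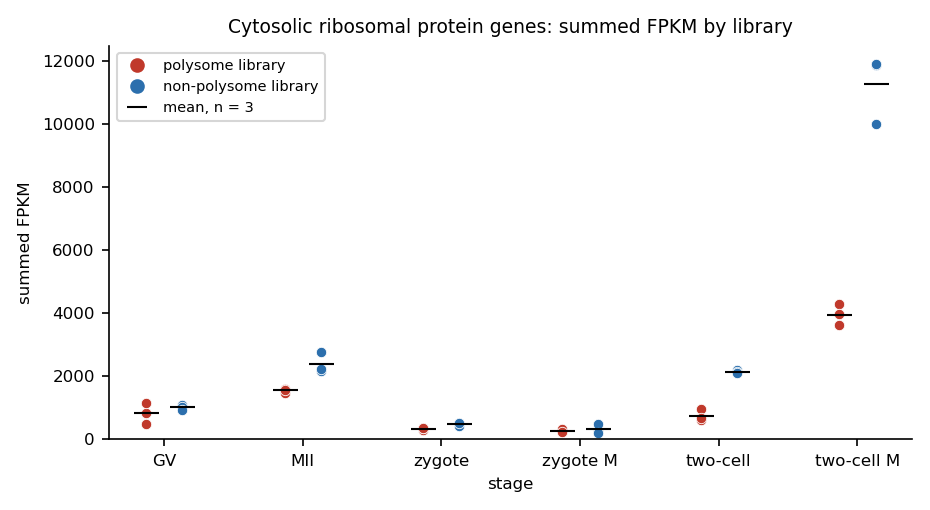
Summed FPKM of 89 cytosolic ribosomal protein genes in each polysome and non-polysome library at 6 stages, with a bar at the mean of 3 libraries. Two-cell M has the highest sums, 3615 to 4285 in polysomes and 10010 to 11920 outside them.

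Many mRNAs of the translation machinery begin with a run of pyrimidines (the 5′ terminal oligopyrimidine tract), through which mTOR is known to control their translation, and so the annotated start sites are shown for genes on both sides of the comparison. Each line holds 30 bases before and 30 bases from the start site of the RefSeq gene model (GRCm38.p6, mRNA strand, 5′ to 3′), and capitals mark the longest run of C and T in the window, or the first of several equally long ones. Rps9, Rplp0, Rps3a1 and Rpl41 were called higher outside polysomes and Eef2, Tubb2a, Arf5 and Ldhb in them, while Rpl35, which the study named, was higher outside without a call.
Rpl35 (chr2:39005102-39005161, minus strand): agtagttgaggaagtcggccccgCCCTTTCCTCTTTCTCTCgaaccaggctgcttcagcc
Rps9 (chr7:3704011-3704070, plus strand): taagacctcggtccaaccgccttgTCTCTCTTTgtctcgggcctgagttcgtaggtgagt
Rplp0 (chr5:115559437-115559496, plus strand): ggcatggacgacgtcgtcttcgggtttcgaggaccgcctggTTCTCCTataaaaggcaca
Rps3a1 (chr3:86142639-86142698, minus strand): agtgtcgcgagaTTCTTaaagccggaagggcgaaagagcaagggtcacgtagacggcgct
Rpl41 (chr10:128549139-128549198, minus strand): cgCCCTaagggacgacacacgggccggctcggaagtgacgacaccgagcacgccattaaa
Eef2 (chr10:81176601-81176660, plus strand): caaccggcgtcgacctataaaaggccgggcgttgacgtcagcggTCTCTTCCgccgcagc
Tubb2a (chr13:34077979-34078038, minus strand): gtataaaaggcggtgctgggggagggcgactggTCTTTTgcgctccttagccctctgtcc
Arf5 (chr6:28423574-28423633, plus strand): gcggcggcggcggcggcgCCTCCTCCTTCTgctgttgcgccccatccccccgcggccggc
Ldhb (chr6:142507928-142507987, minus strand): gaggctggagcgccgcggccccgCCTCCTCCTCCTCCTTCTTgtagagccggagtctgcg

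The run was 18 bases long in Rpl35, 9 in Rps9, 7 in Rplp0, 5 in Rps3a1 and 4 in Rpl41. It was 8 in Eef2, 6 in Tubb2a, 12 in Arf5 and 19 in Ldhb. These lengths, and the shares below, are of runs anywhere in the window, which need not begin at the start site. Relative to the annotated start, the run began at -28 in Rpl41, -18 in Rps3a1 and -12 in Arf5. It began at 12 in Rplp0, 15 in Eef2 and 4 in Tubb2a. Whether tracts at the start of the mRNA differ between the sides was therefore not tested. A run of at least 8 C or T on the mRNA strand was present in 51.6% of 64 ribosomal protein windows, in 22.9% of all 32851 promoter windows of the same length and in 19.8% of the 5041 tested protein-coding genes with a window. Among abundant protein-coding genes it was present in 18.4% of 38 windows of genes called higher in polysomes and in 18.8% of 80 windows of genes called higher outside them once ribosomal proteins were set aside. The start used in embryos may differ from the annotated one.

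Other genes of the translation apparatus were mixed. For 42 tested initiation factors, 2 were called higher in polysomes and 3 outside, with a median log2 difference of -0.45, where all tested genes gave 9.38% and 5.25%. Eif6, which keeps the ribosomal subunits apart, had 759, 570 and 676 FPKM outside and 189, 242 and 256 FPKM in polysomes (-1.55 ± 0.33, limma adjusted p = 0.00551). Among 15 elongation and termination factors, 1 was called higher in polysomes and 2 outside, with a median of -0.45. Eef2 was the polysome call, and Eif5a, which helps ribosomes over difficult peptides, was called outside polysomes with 256, 339 and 176 FPKM against 102, 102 and 116 FPKM (-1.22 ± 0.29, adjusted p = 0.0109). Among 26 aminoacyl-tRNA synthetases 3 (11.5%) were called higher in polysomes, close to the share over all genes, and 0 outside (1 at an unadjusted p under 0.05 in limma). In this group Qars, which charges the glutamine tRNA, had 10.8, 0.356 and 11.9 FPKM in polysomes and about 2 fragments in each non-polysome library. The 16 tested genes of the mTOR pathway gave 0 calls in either direction, with 4 higher in polysomes and 1 higher outside at an unadjusted p under 0.05 in limma and a median of 1.14 (gradient medians 0.11, 0.08 and 2.70). Among them Eif4ebp1, the repressor that mTOR switches off, had 5.88, 1.34 and 7.09 FPKM in polysomes and 3.47, 11.2 and 2.60 FPKM outside (adjusted p = 0.946).

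Of 74 tested nuclear genes of oxidative phosphorylation, 11 (14.9%) were called higher outside polysomes and 3 in them, the median was -0.73, and 21 (28.4%) had all non-polysome libraries on top against 3 the other way. Both shares are above those of all tested genes (5.25% and 9.56%) and slightly below those of abundant protein-coding genes (16.7% and 32.3%). Cox7a2, a subunit of cytochrome c oxidase, had 153, 192 and 139 FPKM outside and 42.2, 73.5 and 37.5 FPKM in polysomes (-1.71 ± 0.37, limma adjusted p = 0.00578), and Ndufa2 of complex I had 149, 109 and 140 FPKM against 66.2, 49.6 and 40.7 FPKM (adjusted p = 0.0404). Cox7a2 was called in all 3 fits that left out a gradient and Ndufa2 in 0. For the 73 mitochondrial ribosomal protein genes there were 10 calls in polysomes and 3 outside, where all tested genes gave 9.38% and 5.25%. Their fitted median was 0.90, but the medians within gradients were -0.30, 0 and 0.18, and their summed FPKM was higher outside polysomes in every gradient, at 1287, 869 and 816 against 512, 609 and 543. As a share of the FPKM of all genes the order was not the same in every gradient. In A, B and C these genes made up 0.546%, 0.351% and 0.393% outside and 0.399%, 0.497% and 0.356% in polysomes. One of them, Mrps23, picked after its values were seen, had 9.14, 6.46 and 1.35 FPKM in polysomes and 0.033, 0.126 and 0.0182 FPKM outside. The abundant Mrpl34 had 493, 316 and 303 FPKM outside and 160, 261 and 138 FPKM in polysomes and was not called (adjusted p = 0.118). Among 20 RNA polymerase subunits 17 had a negative difference and the median was -1.02, with 4 calls outside polysomes and 1 in them. Polr2e, shared by all 3 nuclear RNA polymerases, had 272, 313 and 329 FPKM outside against 42.4, 115 and 79.3 FPKM (-2.06 ± 0.50, adjusted p = 0.0114).

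Genes that run mitosis did not move as one. Cdc20, the activator of the anaphase-promoting complex, was called higher outside polysomes, at 237, 167 and 109 FPKM against 82.9, 56.8 and 74.3 FPKM (-1.21 ± 0.32, limma adjusted p = 0.0188), though leaving out a gradient kept the call in 1 of 3 fits. Cks2, which binds cyclin-dependent kinases, had 93.0, 82.5 and 71.0 FPKM outside and 25.1, 22.6 and 22.4 FPKM in polysomes (-1.81 ± 0.38, adjusted p = 0.0046), with close replicates in both. Cyclin B1 (Ccnb1) had 116, 38.2 and 63.8 FPKM against 29.0, 31.1 and 27.5 FPKM and stayed just above the threshold (adjusted p = 0.0543). Cyclin A2 (Ccna2) was even, with 24.8, 25.4 and 19.9 FPKM outside and 16.3, 20.2 and 19.5 FPKM in polysomes (adjusted p = 0.741). Plk1, a kinase of spindle assembly picked after its values were seen, was called higher in polysomes with 4.23, 13.2 and 19.8 FPKM against 0.0335, 0.213 and 0.0436 FPKM (7.25 ± 0.68, adjusted p = 4.97e-06).

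Of 28 tested centromere and kinetochore genes, 6 (21.4%, beside 9.38% of all tested genes) were called higher in polysomes and 0 outside (2 at an unadjusted p under 0.05 in limma, beside 5.25% of all genes called), with a median of 0.68 that fell below the median of all genes after quantile normalization and with the minimum set within these stages. Cenps, a histone-fold protein of the CENP-T complex, had 8.98, 5.27 and 11.5 FPKM in polysomes and 0.0412, 0.212 and 0.0877 FPKM outside, which is under 2 fragments in each library (6.48 ± 0.57, limma adjusted p = 2.52e-06). The most abundant member, Cenpa, the centromeric histone H3, lay the other way with 85.3, 80.3 and 78.0 FPKM outside and 47.1, 33.7 and 19.9 FPKM in polysomes, without a call (limma adjusted p = 0.0909). Tubulins and kinesins gave 6 calls in polysomes (23.1%) and 2 outside (7.69%, near the share of all genes) among 26. Besides Tubb2a and Tubg2, Tubb4b had 121, 68.9 and 157 FPKM in polysomes and 46.2, 61.1 and 178 FPKM outside (adjusted p = 0.736), and Tuba1a was called higher outside, at 34.5, 16.1 and 1.21 FPKM against 1.04, 4.65 and 0.589 FPKM (adjusted p = 0.0432).

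Among 39 tested replication-dependent histones, whose mRNAs end in a stem-loop and are made in S phase, 6 (15.4%, beside 9.38% of all tested genes) were called higher in polysomes and 0 outside (1 at an unadjusted p under 0.05 in limma), and the median was 2.10. The replicates behind that were uneven, with medians of 3.01, 0 and 0.04 in gradients A, B and C. The most abundant, Hist1h2ap, was even at 2559, 3174 and 3428 FPKM in polysomes and 1830, 2286 and 4124 FPKM outside (limma adjusted p = 0.714). The 10 tested histone variants and linker histones, many of them made throughout the cell cycle, gave 4 calls outside polysomes and 2 in them (5.25% and 9.38% over all genes), with a median of -0.83 and gradient medians of -0.73, -1.04 and -1.24. H3f3b, which encodes histone H3.3, had 432, 437 and 323 FPKM outside and 59.8, 83.2 and 66.7 FPKM in polysomes (-2.51 ± 0.24, adjusted p = 7.89e-06). H2afz had 620, 823 and 501 FPKM against 155, 268 and 254 FPKM (-1.53 ± 0.47, adjusted p = 0.0379). The H2afz call was made in 1 of the 3 fits that left out a gradient. It was lost without the block (limma adjusted p = 0.0521) and with the spread per group (0.832).

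Of 18 tested zona pellucida and oocyte-secreted genes, 5 (27.8%) were called higher in polysomes and 1 (5.56%) outside, with a median of 1.59, and 4 of the 5 were also called with the spread per group. The gradient medians were 1.47, 2.41 and 0.10. Next to Zp1, the growth factor gene Bmp15, picked after its values were seen, had 15.7, 5.20 and 8.57 FPKM in polysomes and 3.17, 0.206 and 0.186 FPKM outside (4.16 ± 0.51, limma adjusted p = 7.19e-05). Its partner Gdf9 moved with the gradient and not the fraction, at 13.9, 2.89 and 47.1 FPKM in polysomes and 7.03, 2.20 and 58.8 FPKM outside (adjusted p = 0.399). For 15 subcortical maternal complex genes, there were 3 calls in polysomes and 1 outside, with a median of 0.52 and gradient medians of -0.26, -0.06 and 0.28, and over all tested genes calls in polysomes were also the more frequent (9.38% against 5.25%). Zbed3 had 75.3, 38.4 and 138 FPKM in polysomes and 19.2, 14.8 and 96.6 FPKM outside, higher in polysomes within each gradient though the ranges overlapped (1.29 ± 0.23, adjusted p = 0.00135), and this difference was -1.21 with equal library medians. Dppa3, which protects the maternal genome from demethylation, was higher outside, at 627, 378 and 391.9 FPKM against 167, 59.1 and 64.3 FPKM (-2.40 ± 0.35, adjusted p = 0.000308).

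Other lists gave small numbers of calls on either side, where all tested genes gave 9.38% in polysomes and 5.25% outside. There were 5 in polysomes and 3 outside among 45 genes of ribosome assembly in the nucleolus (median 0.15), 3 and 3 among 24 Sm and LSm proteins (-0.32), 2 and 1 among 41 proteasome subunits (-0.66), 3 and 1 among 29 genes of entry into the secretory pathway (0.13) and 4 and 3 among 42 heat shock and metallothionein genes (-0.30). For the anaphase-promoting complex and its regulators they were 1 and 2 of 27 (-0.31), for cyclins and Cdk1 control 3 and 3 of 22 (0.29), for mitotic kinases 1 and 1 of 12 (0.29), for repressors of stored mRNA 2 and 0 of 20 (0.97) and for maternal mRNA clearance 1 and 1 of 25 (0.31). The median over all tested genes, 0.37, lies among these medians. The shares called outside polysomes were highest for cyclins and Cdk1 control (13.6% on each side) and for Sm and LSm proteins (12.5% on each side).

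Genes of the two-cell transcription burst could not be placed. The 27 tested members gave 4 calls in polysomes (14.8%) and 2 outside (7.41%), with a median of -0.06, beside 9.38% and 5.25% of all tested genes. Tcstv3 had 218, 0.192 and 198 FPKM outside and 0.13, 26.9 and 51.5 FPKM in polysomes, so that gradient B had it in polysomes and gradients A and C outside (limma adjusted p = 0.565). Tcstv1 and B020031M17Rik also fell below 0.2 FPKM in non-polysome library B and reached 60.3 FPKM or more in A and C. Many of these genes are members of families with nearly identical copies, between which reads can be shared. Of 13 tested stress genes controlled by upstream open reading frames, 1 was called higher in polysomes and 1 outside (7.69% each), with a median of -0.57. Atf4, the stress transcription factor whose translation is governed by upstream open reading frames, was called higher in polysomes with 153, 80.4 and 117 FPKM against 0.879, 51.7 and 95.0 FPKM (2.79 ± 0.89, adjusted p = 0.0451). The differences within A, B and C were 7.45, 0.64 and 0.30, without gradient A the fitted difference of Atf4 was 0.47 and no longer called (adjusted p = 0.418), and with the spread per group the adjusted p was 0.157. The metallothionein Mt1 was even, at 1014, 786 and 660 FPKM in polysomes and 971, 1101 and 1064 FPKM outside (adjusted p = 0.824).

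**Figure D4:**
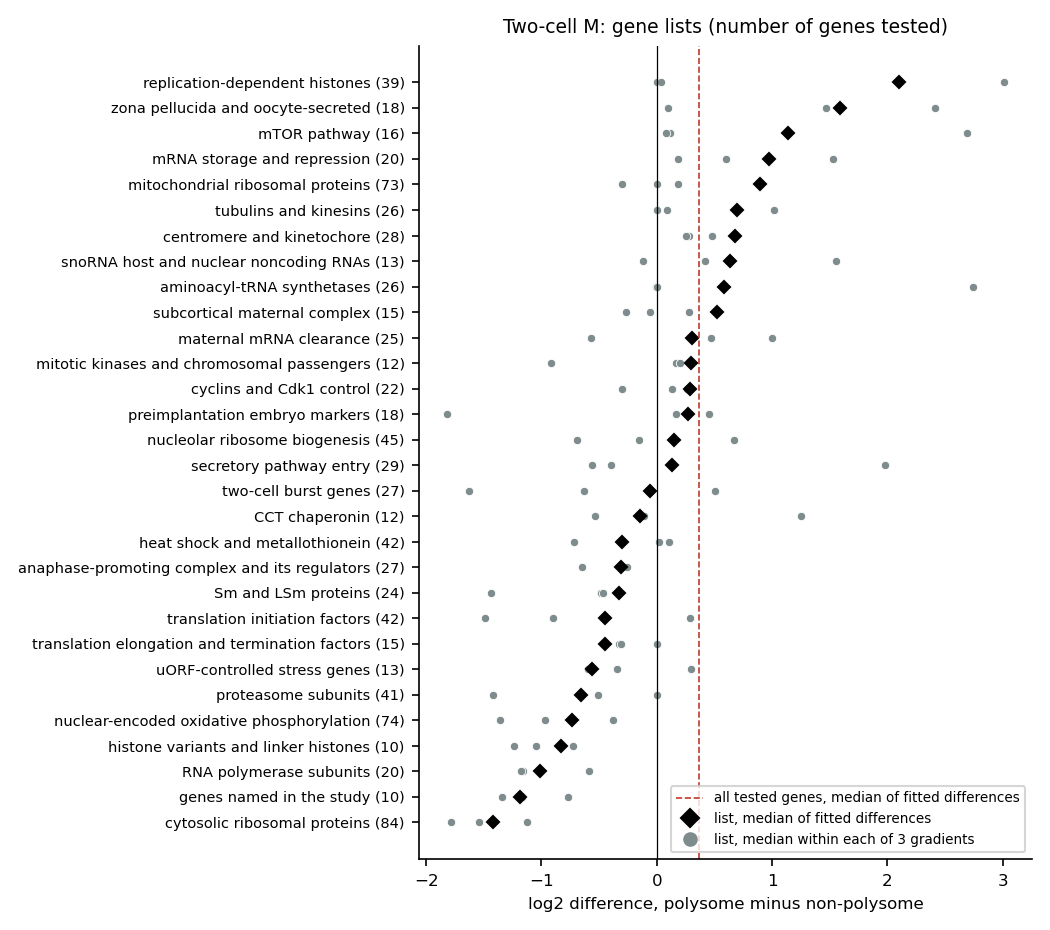
Median log2 difference, polysome minus non-polysome, of each gene list with at least 10 tested members in two-cell M embryos, as the median of fitted differences (diamond) and the median within each of 3 gradients (dots). The dashed line is the median of all tested genes, 0.37, the cytosolic ribosomal proteins lie lowest at -1.42 with 3 dots close together, and the replication-dependent histones highest at 2.10 with dots from 0 to 3.01.

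The genes that the study named were among those read in both fractions. Of these, Cdc20 and H2afz were called higher outside polysomes, each in only 1 of the 3 fits that left out a gradient. Elobl, an oocyte paralogue of the elongin B gene Elob, was even, at 40.5, 25.9 and 61.9 FPKM outside and 59.2, 21.6 and 52.6 FPKM in polysomes (limma adjusted p = 1). Elob itself, kept beside it for its near-identical name, had 92.6, 102 and 81.8 FPKM outside and 25.1, 34.3 and 24.6 FPKM in polysomes, with no overlap and no call (adjusted p = 0.1). Nip7, a factor of ribosome assembly, had 162, 113 and 148 FPKM outside and 64.1, 56.1 and 65.9 FPKM in polysomes (adjusted p = 0.135). Rpl35 had 11.4, 8.86 and 14.7 FPKM against 3.73, 5.95 and 5.31 FPKM (adjusted p = 0.199). Polr2i overlapped, with 85.3, 69.1 and 25.1 FPKM outside and 42.7, 25.7 and 35.2 FPKM in polysomes (adjusted p = 0.471), as did Ooep (adjusted p = 0.167). Mos, the kinase of meiotic arrest, had 12.2, 0.202 and 14.7 FPKM in polysomes and 2.21, 2.53 and 0.775 FPKM outside (adjusted p = 0.725).

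The fraction difference went with the length of the coding sequence among abundant mRNAs. Coding lengths from GENCODE were known for 773 of the 790 abundant protein-coding genes. The medians below are of FPKM differences that were not scaled to the summed FPKM, which was higher outside polysomes. The median log2 difference was -1.22 for 79 genes of up to 300 coding bases and -1.22 and -1.20 in the next classes, up to 450 and 600 bases. It was -0.91 for 600 to 900 bases, 0.06 for 900 to 1200, 0.28 for 1200 to 1800 and 0.65 for the 34 genes above 1800 bases. The gradients were not alike in these 3 classes, with medians in A, B and C of -0.62, -0.79 and -0.05 for 900 to 1200 bases, -0.55, 0.20 and 0.32 for 1200 to 1800, and 0.75, -1.08 and 0.87 above. The share of genes with all non-polysome libraries on top was 44.3%, 44.4% and 45.5% in the first 3 classes and 5.88% in the last, against 32.3% over all 790. Across genes, which are not independent, Spearman's rho between coding length and difference was 0.26, and 0.25 without the ribosomal proteins. Coding length was also related to the mean level (rho = -0.27), and a longer coding sequence has room for more ribosomes, so a long and a short mRNA with the same density of ribosomes can fall in different fractions. Whether either of these lies behind the trend was not tested.

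**Figure D5:**
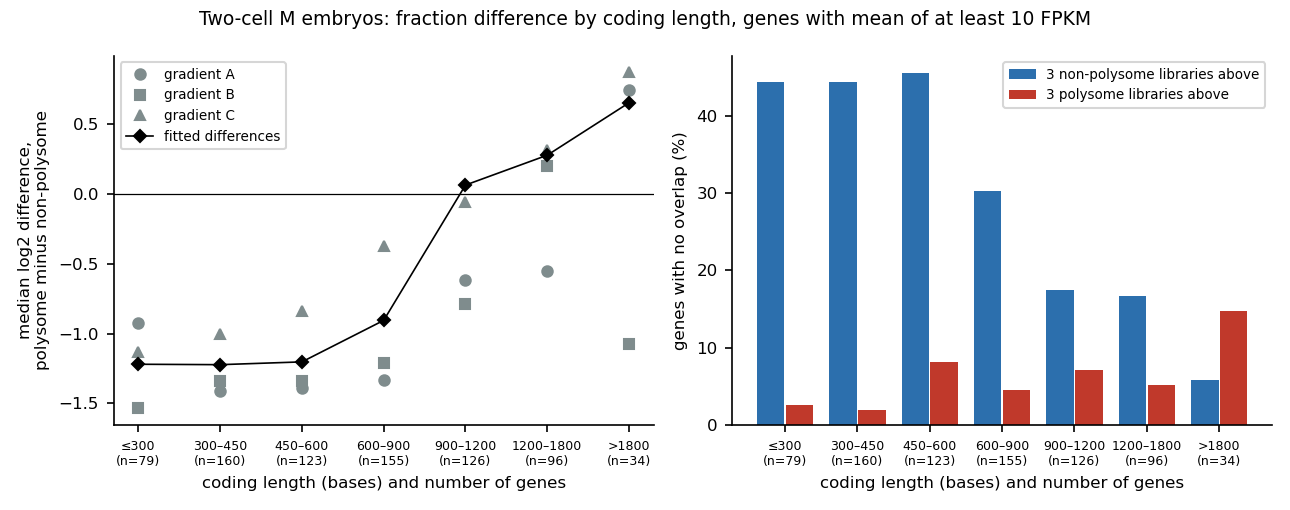
Abundant protein-coding genes (10 FPKM or more) of two-cell M embryos, in classes of coding length (bases, with the number of genes). The left panel gives the median log2 difference between fractions, fitted and within each gradient, rising from -1.22 to 0.65, and the right panel gives the percentage of genes without overlap between fractions in each direction.

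The fraction difference in two-cell M was compared with that of interphase embryos by an interaction test, in which M-phase and the nocodazole used to arrest it cannot be told apart. Against two-cell embryos, the difference was another in two-cell M for 424 genes (5.32%), higher for 245 (3.08%) and lower for 179 (2.25%). The spread behind these calls came from all stages. With only the 2 stages compared and the gradient as a block, limma called 0 genes (695 at an unadjusted p under 0.05), and 67 were called with the spread per group and 1475 with equal library medians. Leaving out 1 two-cell M gradient gave 592 to 658 genes. The genes named here are the 5 largest in each direction among called protein-coding genes that averaged 10 FPKM or more across the 12 libraries of both stages and were never at the lowest value, and several are below 10 FPKM in two-cell M itself. Arf5 had the largest positive interaction of these. Two-cell embryos had 71.1, 107 and 82.9 FPKM in polysomes and 115, 112 and 66.9 FPKM outside them, where two-cell M had about 1 fragment per library (interaction 8.24 ± 0.71, limma adjusted p = 5.52e-06). Mif4gd, which binds the histone stem-loop binding protein, behaved alike, with 20.8, 11.8 and 44.6 FPKM outside polysomes in interphase and 0.0748, 0.127 and 0.0216 FPKM in M-phase, while in polysomes it had 10.52, 9.81 and 21.6 and then 9.67, 9.52 and 4.93 FPKM (7.79 ± 0.67, adjusted p = 5.52e-06). Cdc42se1, 1810037I17Rik and Hirip3 followed under that rule, with interactions of 7.75, 6.96 and 6.89.

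In the other direction Rce1 changed sides. It was almost absent outside polysomes in interphase, at 0.0443, 0.0595 and 0.0258 FPKM against 5.25, 6.56 and 3.01 FPKM in polysomes, and in M-phase it reached 29.7 to 81.6 FPKM outside (interaction -11.34 ± 0.99, limma adjusted p = 5.52e-06). Its interphase non-polysome values are close to the lowest level, which leaves the size of this interaction loosely fixed. A430005L14Rik had 46.6, 35.7 and 42.9 FPKM in interphase polysomes and 15.9, 19.2 and 16.9 FPKM outside, the reverse of its order in M-phase (-5.01 ± 0.97, adjusted p = 0.00754). Dmrtb1, a DM-domain transcription factor, had 12.9, 12.9 and 14.2 FPKM in polysomes and 3.10, 4.31 and 6.53 FPKM outside in interphase, and 6.16, 9.27 and 9.0 FPKM and 31.6, 22.9 and 28.6 FPKM in M-phase (-3.36 ± 0.62, adjusted p = 0.00525). Asna1, which inserts tail-anchored proteins into membranes, and Tuba1a were the other two, with interactions of -3.31 and -4.40. With the spread per group, 7 of these 10 genes were still called, all but Tuba1a, Dmrtb1 and Asna1.

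Against zygote M, which was also arrested with nocodazole, 350 genes (4.39%) had another difference in two-cell M, higher for 210 (2.64%) and lower for 140 (1.76%). With only these 2 stages and the block, limma called 0 genes (891 at an unadjusted p under 0.05), and 104 were called with the spread per group and 1617 with equal library medians. Leaving out 1 two-cell M gradient gave 556 to 581 genes. Among the 49 of the 210 that met the same rule over the libraries of these stages, the 5 largest were those of Arf5 (8.26), Cdc42se1 (7.14), Sebox, Cenps (6.93) and Mif4gd (6.56). Sebox had 365, 526 and 1149 FPKM in polysomes and 487, 556 and 560 FPKM outside in zygote M, so that its level in two-cell M was lower in both fractions and lowest outside polysomes (interaction 7.12 ± 0.84, limma adjusted p = 0.000183). Rps9 was at 0.0666 to 0.092 FPKM outside and at 0.352 to 1.26 FPKM in polysomes of zygote M, and its difference was lower in two-cell M by 5.38 ± 0.71 (adjusted p = 0.000463), a size that also rests on values close to the lowest level. Aprt, an enzyme of purine salvage, had 495, 558 and 440 FPKM outside and 128, 105 and 100 FPKM in polysomes of two-cell M, where zygote M had 0.0495 to 1.72 and 2.34 to 4.85 FPKM (-5.87 ± 0.97, adjusted p = 0.00268), and this size too rests on low values. Tomm6, Rce1 and Dcaf12 completed the 5, with interactions of -4.79, -4.52 and -4.49. With the spread per group, 6 of the 10 remained called, namely the 5 higher ones and Rps9.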

How the data were processed

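The authors separated lysates on sucrose gradients, pooled the fractions, prepared libraries with the Smart-seq V4 kit and Nextera XT, trimmed reads with Trim Galore 0.4.1, mapped them to GRCm38 with STAR 2.5.3a and quantified genes in Partek, per the labels and the methods. The deposited values are normalized FPKM for 23125 genes in 36 libraries, with 0.01 added to each value. For 2 of the 38 samples, both zygotes, no column was used here. Smart-seq V4 copies polyadenylated RNA. Symbols and positions are those of the table, and 20777 of 22193 symbols shared with GENCODE vM21 had the same position. Depth was read from single-exon genes, where 62.9% to 66% of low values in two-cell M were whole multiples of 1 fragment within 0.05 of a fragment, and intervals were not computed from it.

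Log2 of the deposited FPKM, with nothing further added, entered limma (version 3.58.1, R 4.3.3, trend, empirical Bayes) over all 36 libraries, with the 18 gradients as blocks and the 7967 genes of geometric mean of at least 0.1 FPKM. On this scale the size of a difference that involves values near 0.01 is loosely fixed. In two-cell M, 1 fragment on a gene of 1 kb corresponds to 0.0514 to 0.118 FPKM, above that lowest value. Both fractions of a letter come from 1 gradient, which is where the pairing comes from, and their residuals correlated at 0.007, 0.082 and 0.098. Replicates are biological triplicates per the design text, and the number of embryos per library is not given in the sources used here. The spread-per-group fit used array weights without the block. On simulated data for this comparison with 7967 genes, 7 of 200 planted log2 differences of 2 and 53 of 200 of 4 were called, 0 with the wrong sign, beside 0 and 7 false calls. The simulated noise had the spread shared by all stages, while two-cell M had the highest spread of paired differences. The simulation therefore cannot give the rate of false calls in the real comparison.

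Named genes were, per direction, the 12 with the largest difference among called protein-coding genes averaging 10 FPKM or more with no overlap and no value at 0.01, the 3 most abundant called genes at 0.01 in all libraries of the other fraction, the 4 most abundant members of each list, the genes named in the study, the 5 largest interactions per direction (averaging 10 FPKM or more across the 12 libraries compared) and the 10 most abundant protein-coding genes. Other members named in the text were picked after their values were seen. The samples, gene lists and rules were chosen with earlier results of these data known. Lists for mitochondrially encoded genes had no member in the table and were not analysed here. One gene that met the first rule is not reported here. Printed sequences are from RefSeq, GENCODE transcripts were compared with blastn 2.17.0, and Python 3.11.15 with numpy 2.4.6, pandas 2.3.3, scipy 1.17.1 and matplotlib 3.10.9 was used. Alternatives were other offsets, minimums, scalings, blocks and spreads, fits of fewer libraries and leaving out each gradient.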

Additional observations from a re-analysis of the deposited data

Results flagged for a closer look

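The difference between fractions was itself different in two-cell M and another stage for 424 genes against interphase two-cell embryos and for 350 genes against zygote M, by limma's interaction test at an adjusted p under 0.05 and beyond 1 on the log2 scale.

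Against two-cell embryos, the named genes with a higher difference in two-cell M were Arf5 (interaction 8.24), Mif4gd (7.79), Cdc42se1 (7.75), 1810037I17Rik (6.96) and Hirip3 (6.89). Those with a lower difference were Rce1 (-11.34), A430005L14Rik (-5.01), Tuba1a (-4.40), Dmrtb1 (-3.36) and Asna1 (-3.31). Against zygote M, the higher ones were Arf5 (8.26), Cdc42se1 (7.14), Sebox (7.12), Cenps (6.93) and Mif4gd (6.56), and the lower ones Aprt (-5.87), Rps9 (-5.38), Tomm6 (-4.79), Rce1 (-4.52) and Dcaf12 (-4.49). In two-cell M, Arf5, Mif4gd, Cdc42se1 and Cenps had fewer than 3 fragments in each non-polysome library, so the sizes of their interactions depend on values near the lowest level. The same holds for Rce1, whose interphase non-polysome libraries were at 0.0443, 0.0595 and 0.0258 FPKM, and in zygote M outside polysomes for Rps9, at 0.0666 to 0.092 FPKM, and Aprt, at 0.0495, 0.167 and 1.72 FPKM. With only the stages compared and the replicate block, limma called none of these genes, nor any other (695 and 891 genes at an unadjusted p under 0.05). Why they differ between stages was not tested.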

How the results depend on the processing

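The 747 and 418 calls in polysomes and outside them became 453 and 724 with 1 FPKM added, 195 and 2432 with equal library medians, 164 and 21 with the spread per group, 0 and 0 with only the 6 two-cell M libraries and the replicate block, and 5 and 14 with those libraries and no replicate block. The block is the gradient, and without it over all libraries the counts were 773 and 403. For the interaction with two-cell (424) the counts were 1475 with equal medians, 67 with the spread per group, 0 with only the stages compared and the replicate block and 109 without the block, and for that with zygote M (350) they were 1617, 104, 0 and 116. Leaving out 1 gradient gave 623 to 847 and 308 to 459 calls, 592 to 658 and 556 to 581 interactions, and a difference of 1208 to 1924 genes at 0.1 FPKM. The cause of these shifts was not tested.

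Equal library medians turned the sign for Ldhb (-0.28), Eef2 (-0.48), Hist1h2ap (-2.27), Tubb4b (-2.05), Zbed3 (-1.21), Ooep (-1.90), Gdf9 (-2.15), Ybx1 (-2.45), Slc35a4 (-2.45), Polr2j (-2.46), Elobl (-2.48), Gm20594 (-0.89) and Ubb (-1.16). Without gradient B it turned for Eif3i (1.19) and Tcstv1 (-3.94), with ranges over the 3 gradients left out of -0.85 to 1.19 and -3.94 to 3.73. Relative to all genes, the list median turned for the anaphase-promoting complex without gradient B (0.32, range -0.57 to 0.32), and for the kinetochore list with the minimum set within these stages (-0.0941) and after quantile normalization (-0.0447).

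At this depth a gene with fewer than 3 fragments in a fraction has no measurable level there, which held for every non-polysome library in 433 of the 747 polysome calls and for every polysome library in 66 of the 418 others (for genes of 1 kb).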

Other observations

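By change in level between stages, a split made after the values were seen, 191 abundant protein-coding genes were at least 4-fold higher in interphase two-cell embryos than in zygotes, and their median log2 difference between fractions in two-cell M was -1.17. All 3 non-polysome libraries lay above all polysome libraries for 40.8% of them. For 507 genes within 4-fold the median was -0.82 and that share 31.8%, and for 92 genes at least 4-fold lower in two-cell embryos they were 0.06 and 17.4%. Within the last class the gradients were uneven, with medians of -1.17, -0.84 and 0.13. Over tested protein-coding genes of any level the order was another, with medians of -0.26 for the 379 higher, 0.63 for the 3312 within 4-fold and 0.53 for the 2709 lower genes. These are descriptions over genes, with no test.

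Copies and noncoding transcripts took different shares of the fractions. Processed pseudogenes made up 21%, 23.4% and 17% of the summed FPKM outside polysomes in gradients A, B and C and 12.6%, 14.2% and 10.7% in polysomes, and of the 891 tested, 106 were called higher outside and 42 in polysomes, where all tested genes gave 5.25% and 9.38%. Long noncoding RNAs of the lincRNA type took 7.02%, 7.57% and 6.18% outside and 6.23%, 5% and 3.88% in polysomes, but of the 196 tested 13 were called in polysomes and 6 outside, with a median of 0.47. Transcripts of the TEC type, annotated models that still await experimental evidence, ran opposite to the pseudogenes in share, at 2.51%, 1.65% and 4.79% in polysomes and 0.918%, 0.557% and 1.3% outside, and of 90 tested 13 were called in polysomes and 1 outside. Among the lincRNAs was Gm10076, identical to the ribosomal protein mRNA Rpl41 at 99.5% of 383 bases, so its reads may stem from Rpl41. The 7SK RNA (Rn7sk), a nuclear noncoding RNA, had 614, 824 and 613 FPKM in polysomes and 209, 616 and 638 FPKM outside (limma adjusted p = 0.581).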
